A study of Mus musculus with 8 samples.

Results

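Molecular chaperones and the heat shock transcription factors were taken by symbol from the gene list of a single-cell RNA-seq study of SN4741 cells: the HSP70 (Hspa), HSP90, HSP110 and small heat shock protein (Hspb, Cryab) families, the J proteins (Dnaja, Dnajb, Dnajc), the HSP90 co-chaperones Stip1, Ahsa1 and Chordc1, the BAG proteins, the cytosolic chaperonin TRiC (Tcp1, Cct), the mitochondrial chaperonin (Hspd1, Hspe1) and the factors Hsf1 to Hsf5. Hspa5 and Dnajb9, endoplasmic reticulum genes of the unfolded protein response, were left out. The rule gave 94 of the 31053 genes of the files. Of these, 83 averaged at least 1 count per library and were tested, and 11 were not: Hsf3, Dnajb3, Dnajb8, Dnajc5g, Hspb3 and Hspb9 had 0 counts, and Dnajb7, Dnajb13, Dnajc5b, Dnajc22 and Cct8l1 had at most 3 counts over all libraries.

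SN4741 is a clonal line made from embryonic mouse substantia nigra carrying a temperature-sensitive SV40 T antigen (tsA58) under a tyrosine hydroxylase promoter; the labels call the cells neural precursors of WT genotype, and the study describes an unstable, near-triploid chromosome complement. Cells of 4 libraries grew at the permissive 37°C in 10% serum. Cells of the other 4 were held for 48 hours at the non-permissive 39°C in 0.5% serum. Temperature, serum and the state of the T antigen changed together and cannot be told apart, and so "39°C" below stands for all of them. The labels do not say whether replicates were separate cultures, so the p-values measure only the spread between these libraries, which may be technical.

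After the study's cell filter, 18351 of 19125 cells were kept, 985 to 3494 per library, with 17166686 to 29633818 unique molecular identifiers (UMIs, 1 per captured RNA molecule) per library. No pair of libraries had over 5 cell barcodes in common. The first 39°C replicate stood apart with the fewest cells, 985; without it 17 members were called higher and 42 lower. By expression, 20.6 to 28.7% of cells were in G1 at 37°C against 82.5 to 85.4% at 39°C, and effects are therefore also given within phases. These shares come from scoring all libraries together. Scored within each temperature, every 37°C library had more G1 cells and every 39°C library fewer. The first 37°C replicate then had 1048 instead of 709 G1 cells, and the first 39°C replicate 561 instead of 841. Of 7 markers for the label "neural precursor", 3 were expressed and 4 were near 0: Vim averaged 5396 CPM (counts scaled to 1000000 per library, with the factors of edgeR) at 37°C, Nes fell from 467 to 108 CPM and Sox2 rose from 55.4 to 76.5 CPM, while Sox1, Pax6, Fabp7 and Msi1 had 1, 3, 6 and 12 counts in all. Among 6 mesenchymal markers Col1a1 was the highest at 37°C, at 1027 CPM, followed by Col1a2 at 678 and Acta2 at 225 CPM. Pdgfrb averaged 80.7, Col3a1 11.9 and Dcn 0.09 CPM there. Among 5 neuron markers, Stmn2 averaged 112, Map2 51.4 and Tubb3 15.4 CPM at 37°C, while Rbfox3 and Snap25 had 18 and 1 counts in all.

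Chaperones help proteins fold, keep them from aggregating and hand damaged ones on for breakdown. HSP70 proteins bind exposed stretches of unfolded chains in a cycle driven by ATP, which J proteins start and exchange factors such as HSP110 and BAG proteins end; HSP90 finishes the folding of kinases and receptors, TRiC folds actin and tubulin inside a ring, and HSP60 (Hspd1) with its lid HSP10 (Hspe1) does the same in mitochondria. In acute heat shock, HSF1 binds arrays of the element nGAAn next to genes such as Hspa1a, Hspa1b, Dnajb1, Hsph1, Hspb1 and Bag3 and raises them strongly.

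The start regions of 75 members were found among mouse RefSeq windows (GRCm38.p6) reaching from 250 bases before to 50 bases after each start. They were searched for 2 adjoining heat shock units, written GAANNTTC or TTCNNGAA, and for 3 units, written GAANNTTCNNGAA or TTCNNGAANNTTC. The first 2 patterns read the same on both strands, the last 2 are each other's reverse complement, and every 3-unit match also holds 2-unit matches. Some 2-unit pattern occurred in 22 of the 75 members (29.3%) and in 17.0% of all 27025 genes of the table, or 15.1% of its 32851 windows. A 3-unit pattern occurred in 5 members (6.67%), Hspd1, Hspe1, Hsph1, Chordc1 and Dnajb6, against 0.662% of all genes. Only exact matches were counted. Members without a window, whose starts were not searched, include Hspa8, Hspa9, Hsp90aa1, Hsp90ab1, Cryab, Hsf1, Hsf4 and Cct4. Dnajb1 has 2 windows, and neither holds a match. The windows below are shown because they belong to Hspd1, the member with 3 units that fell the most, to the strictly inducible HSP70 pair, to Hspb1, and to Dnajb6, the 1 member with 3 units that was not called. Each is the 250 bases before the start, 5′ to 3′ on the gene's strand, with the heat shock patterns in capitals.
Hspd1 (chr1:55087933-55088182, minus strand): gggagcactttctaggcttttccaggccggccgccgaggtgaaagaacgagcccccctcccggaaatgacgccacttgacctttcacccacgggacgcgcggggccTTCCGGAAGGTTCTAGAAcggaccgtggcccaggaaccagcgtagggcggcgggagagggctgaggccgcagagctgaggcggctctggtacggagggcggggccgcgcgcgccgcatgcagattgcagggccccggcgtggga
Hspa1a (chr17:34972157-34972406, minus strand): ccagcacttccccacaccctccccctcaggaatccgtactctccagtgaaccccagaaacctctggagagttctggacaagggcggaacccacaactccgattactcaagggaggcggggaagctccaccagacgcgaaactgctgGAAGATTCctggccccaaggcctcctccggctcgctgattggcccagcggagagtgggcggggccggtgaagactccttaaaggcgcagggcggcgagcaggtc
Hspa1b (chr17:34959239-34959488, minus strand): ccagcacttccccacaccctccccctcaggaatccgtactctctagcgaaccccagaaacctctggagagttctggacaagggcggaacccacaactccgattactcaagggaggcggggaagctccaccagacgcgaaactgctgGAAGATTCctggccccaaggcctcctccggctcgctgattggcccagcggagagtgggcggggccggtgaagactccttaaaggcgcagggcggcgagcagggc
Hspb1 (chr5:135887669-135887918, plus strand): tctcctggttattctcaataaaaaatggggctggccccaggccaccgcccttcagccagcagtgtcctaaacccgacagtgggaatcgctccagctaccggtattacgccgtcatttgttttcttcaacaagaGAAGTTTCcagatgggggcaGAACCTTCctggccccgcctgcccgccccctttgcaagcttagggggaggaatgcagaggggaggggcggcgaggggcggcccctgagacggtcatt
Dnajb6 (chr5:29735648-29735897, plus strand): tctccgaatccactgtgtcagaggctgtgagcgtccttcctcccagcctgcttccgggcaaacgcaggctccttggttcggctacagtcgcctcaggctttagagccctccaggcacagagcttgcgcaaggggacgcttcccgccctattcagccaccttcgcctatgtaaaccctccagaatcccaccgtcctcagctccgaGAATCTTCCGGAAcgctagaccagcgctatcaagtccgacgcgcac
Hspd1 has 2 starts in the table. The window shown covers the 215 bases between the inner one and the diverging Hspe1 start, so the run of units stands before both of these starts; the window of the other Hspd1 start, which lies on the far side of the Hspe1 start, holds no match, and the run lies after that start. The windows of Hspa1a and Hspa1b differ at 3 of 250 bases and carry the same single match. Of the members that have a window and were tested, 2-unit patterns were found in 2 of 11 called higher, 10 of 35 called lower and 7 of 20 not called at 39°C; 3-unit patterns were found in 0, 4 and 1 of these. A match is a sequence description and not a bound site.

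At 39°C more chaperone genes were lower than higher, and every tested HSP90, HSP110 and mitochondrial chaperonin gene was among the lower ones. In all cells 41 of the 83 tested members (49.4%) were lower and 16 (19.3%) higher at an adjusted p under 0.05, the limit for a call here; over all 15810 genes tested, 30.5% were lower and 31.5% higher. Members made up 1.70 to 1.82% of all counts in the 37°C libraries and 1.44 to 1.48% in the 39°C libraries. The median log2 fold change was -0.13 over the members and 0.02 over all genes. Asking also for a log2 size over 0.5 left 15 members lower and 4 higher, against 16.5% and 16.6% of all genes. With the size limit the study set for its bulk RNA-seq (log2 over 1.5, adjusted p under 0.01), 1 member was lower, Hspb6, and 0 were higher, against 3.62% and 2.21% of all genes. The 4 libraries of one temperature did not overlap those of the other for 39 members that were lower and 18 that were higher, against 28% and 28.7% of all genes. CPM is a share of a library's RNA, so these are changes relative to other genes and not amounts per cell.

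**Figure D1:**
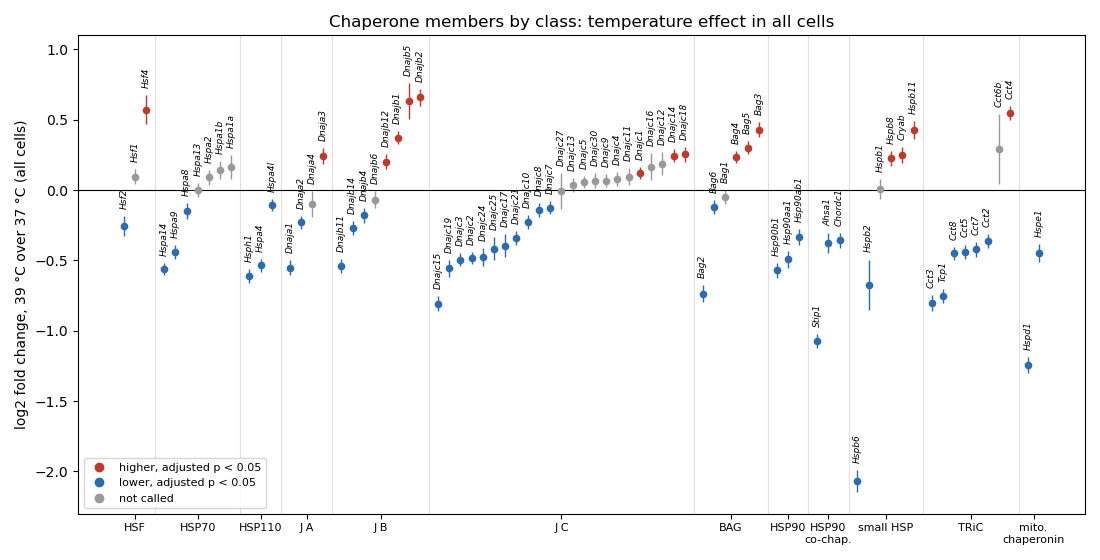
Log2 fold change (39°C over 37°C, y axis) of the 76 members with at least 100 counts, grouped by class along the x axis; points are edgeR estimates in all cells, bars their SE, and colour marks the call. HSP110, HSP90, its co-chaperones, TRiC except Cct4 and Cct6b, and the mitochondrial chaperonin lie below 0, while BAG, J protein and small heat shock protein classes lie on both sides, with Hspb6 lowest at -2.07.

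Of the 4 heat shock factors tested, 1 was higher, 1 lower and 2 were not called, while 31.5% of all genes were higher and 30.5% lower. Hsf1, the main activator of heat shock genes, is regulated mostly as a protein; it measured 34.6, 32.1, 38.0 and 36.9 CPM in the 37°C libraries and 36.1, 37.2, 38.4 and 39.2 CPM in the 39°C libraries. These ranges overlap and Hsf1 was not called (log2 fold change 0.10 ± 0.054 (SE), adjusted p = 0.139). Hsf2, which can pair with Hsf1, was lower in all cells, from 14.9 ± 1.36 to 12.6 ± 0.755 CPM (mean ± SD, n = 4 here and below; log2 fold change -0.25 ± 0.072 (SE), adjusted p = 0.0047). Within G1 cells and within S and G2M cells 0 of the 4 factors were called lower, the lowest changes being -0.15 and 0.03. Hsf4, best known from the lens, was low but higher at 39°C: it measured 4.56, 5.39, 5.82 and 5.97 CPM in the 37°C libraries and 9.53, 8.29, 7.79 and 7.02 CPM in the 39°C libraries, without overlap (log2 fold change 0.57 ± 0.10 (SE), adjusted p = 7.23e-05). Hsf5 stayed under 1 CPM in every library and was not called.

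The strictly inducible HSP70 genes and Hspb1 were not called. Hspa1a, an HSP70 made on stress, measured 7.85, 8.18, 8.90 and 8.11 CPM in the 37°C libraries and 10.7, 8.06, 9.91 and 8.64 CPM in the 39°C libraries. Its near-identical copy Hspa1b measured 24.2, 25.2, 28.9 and 25.0 CPM in the 37°C libraries and 25.4, 30.1, 30.4 and 27.8 CPM in the 39°C libraries. The temperatures overlap for both, and neither was called (log2 fold change 0.16 ± 0.087 (SE), adjusted p = 0.112, for Hspa1a; log2 fold change 0.15 ± 0.065 (SE), adjusted p = 0.0596, for Hspa1b), although Hspa1b passed the limit in several alternative fits, at log2 fold changes of at most 0.20. Reads from the part the 2 copies share cannot be assigned to 1 of them, and a coding gene overlaps Hspa1a on the other strand. Hspb1 (HSP27), whose window carries 2 separate matches, measured 26.1, 22.1, 26.9 and 24.7 CPM in the 37°C libraries and 22.6, 27.8, 23.9 and 25.7 CPM in the 39°C libraries, which overlap almost fully (log2 fold change 0.01 ± 0.068 (SE), adjusted p = 0.937).

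Other inducible members moved in opposite directions. Dnajb1 (HSP40), the J partner of the inducible HSP70s, measured 85.0, 84.1, 84.7 and 88.3 CPM in the 37°C libraries and 112, 108, 106 and 118 CPM in the 39°C libraries, without overlap (log2 fold change 0.37 ± 0.046 (SE), adjusted p = 7.41e-07). Bag3, which routes HSP70 clients to autophagy, measured 35.1, 31.3, 33.5 and 37.5 CPM in the 37°C libraries and 45.0, 47.5, 46.1 and 46.5 CPM in the 39°C libraries, also without overlap (log2 fold change 0.43 ± 0.053 (SE), adjusted p = 8.23e-07). Hsph1 (HSP105), which releases ADP from HSP70 and around whose starts lies a 3-unit pattern, went the other way, with 80.7, 83.8, 85.6 and 91.6 CPM in the 37°C libraries and 52.1, 59.2, 54.5 and 57.6 CPM in the 39°C libraries (log2 fold change -0.61 ± 0.052 (SE), adjusted p = 4.24e-09). Thus Dnajb1 and Bag3 rose and Hsph1 fell, each in all 4 libraries. Beside these, 9 of 9 immediate early genes taken as a list of handling response (Fos, Jun, Egr1 and others) were higher at 39°C, against 31.5% of all genes. Their summed level was 804 to 957 CPM at 37°C and 1541 to 1814 CPM at 39°C, and their part in the result was not tested.

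**Figure D2:**
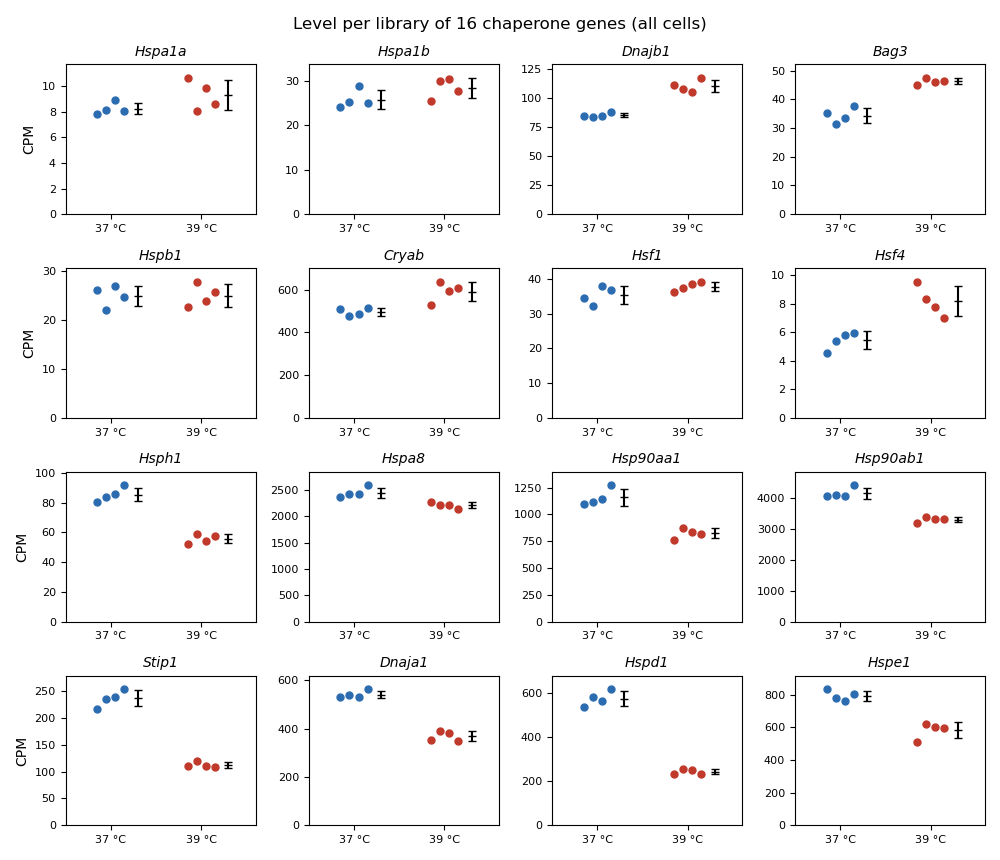
CPM (y axis, from 0) of 16 chaperone genes in each of the 4 libraries per temperature (points), with mean and SD (black bars). Hspa1a, Hspa1b, Hspb1 and Hsf1 overlap between temperatures, Dnajb1, Bag3, Cryab and Hsf4 are higher at 39°C, and the other 8 are lower.

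Counts summed over a library do not tell whether a few cells carry them. Each kept cell was therefore thinned to 3000 UMIs, which left out 215 cells at 37°C and 579 at 39°C, and the share of cells with at least 1 UMI of a gene was taken per library, with no test. Hspa1a was found in 2.56 ± 0.0925% of cells at 37°C and 2.82 ± 0.294% at 39°C. Hspa1b was found in 7.34 ± 0.578% and 7.82 ± 0.544%. If every cell of a library carried the gene at the library's mean share of counts, Hspa1a would be found in 2.61 and 2.86% of cells and Hspa1b in 7.69 and 8.08%. At levels this low an uneven spread can give nearly the same share, so the comparison cannot tell the spreads apart. Before thinning, single cells held up to 10 Hspa1a UMIs at 37°C and 6 at 39°C, and up to 16 and 18 Hspa1b UMIs. Dnajb1 went from 22.1 ± 0.506 to 26.9 ± 1.13% and Bag3 from 9.55 ± 0.646 to 12.4 ± 0.318%. Hsph1 went from 20.7 ± 1.24 to 14.97 ± 0.606% and Hspb1 from 6.62 ± 0.507 to 6.41 ± 0.427%. For Hspb1 an even spread would give 7.38 and 7.54%. Cryab was the widest spread of the 7 genes, in 67.8 ± 0.71 and 73.8 ± 2.10% of cells, below the 75.8 and 81.5% of an even spread. Without thinning the shares were 10.0 and 9.73% for Hspa1a and 59.6 and 59.1% for Dnajb1, and they moved with depth, the median cell holding 9839 to 15413 UMIs at 37°C and 6676 to 16665 at 39°C. No cell type that should lack these genes was in the libraries, so the part of free RNA in the shares was not measured.

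**Figure D3:**
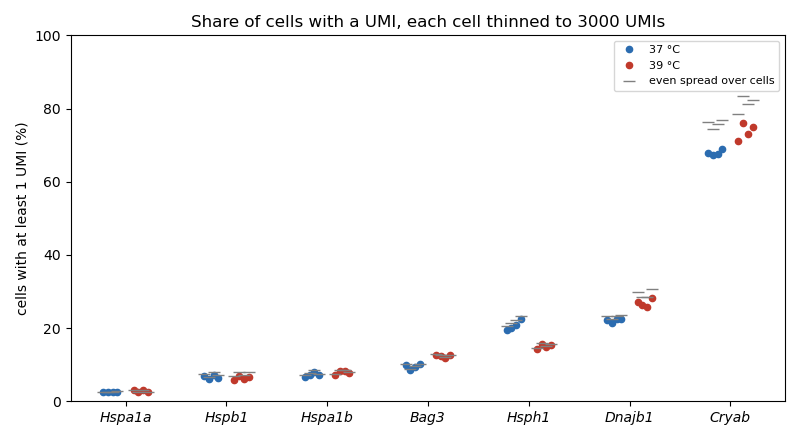
Share of cells with at least 1 UMI (y axis, %) for 7 inducible members after thinning each cell to 3000 UMIs; points are libraries and grey dashes the share an even spread over cells would give. Dnajb1, Bag3 and Cryab shares are higher and Hsph1 lower at 39°C, while Hspa1a, Hspa1b and Hspb1 overlap.

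Among the constitutive HSP70s, Hspa8, Hspa9 and Hspa14 were lower. Hspa8 (HSC70), the most abundant one, measured 2367, 2416, 2433 and 2587 CPM in the 37°C libraries and 2276, 2210.3, 2224 and 2141 CPM in the 39°C libraries; all 39°C values lay lower, but the difference was small (log2 fold change -0.15 ± 0.055 (SE), adjusted p = 0.0265), and it missed the limit with library totals as the only scaling and without any 1 of 4 libraries (37°C replicate 4, 39°C replicates 2, 3 and 4; adjusted p up to 0.0659). Hspa9, the mitochondrial import HSP70, fell from 201 ± 11.8 to 149 ± 0.959 CPM (log2 fold change -0.44 ± 0.048 (SE), adjusted p = 1.61e-07). Hspa14, which joins the J protein Dnajc2 at the ribosome to receive new chains, fell from 101 ± 3.10 to 68.6 ± 1.34 CPM (log2 fold change -0.56 ± 0.044 (SE), adjusted p = 1.21e-09), although a coding gene overlaps it on the same strand and reads in the shared part are uncertain. Dnajc2, named here after its value was seen, fell from 121 ± 1.95 to 86.6 ± 1.23 CPM (log2 fold change -0.48 ± 0.042 (SE), adjusted p = 5.73e-09). Hspa13 and Hspa2 were not called, at 0.00 and 0.09, and Hspa1l, Hspa12a and Hspa12b stayed under 1 CPM. In all, 3 of the 10 HSP70 members were lower, a share near the 30.5% of all genes called lower, and 0 were higher, against 31.5%. All 3 HSP110 members, exchange factors for HSP70, were lower in all cells: beside Hsph1, Hspa4 measured 223, 221, 214 and 226 CPM in the 37°C libraries and 149.7, 162, 154 and 145 CPM in the 39°C libraries, without overlap (log2 fold change -0.53 ± 0.047 (SE), adjusted p = 6.72e-09), and Hspa4l fell by less (log2 fold change -0.11 ± 0.044 (SE), adjusted p = 0.0462). Within G1 cells and within S and G2M cells 2 of the 3 were lower, and Hspa4l was not called, at -0.002 and 0.01.

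The HSP90 class and its co-chaperones were lower in all cells, 6 of 6 members, against 30.5% of all genes. Hsp90ab1, the constitutive cytosolic form and the most abundant member, measured 4066, 4092, 4053 and 4409 CPM in the 37°C libraries and 3178, 3378, 3336 and 3317 CPM in the 39°C libraries, without overlap (log2 fold change -0.33 ± 0.057 (SE), adjusted p = 4.89e-05). Its inducible paralog Hsp90aa1 measured 1096, 1118, 1148 and 1270.4 CPM in the 37°C libraries and 765, 878, 834 and 817 CPM in the 39°C libraries (log2 fold change -0.49 ± 0.060 (SE), adjusted p = 6.66e-07). The ratio of Hsp90ab1 to Hsp90aa1 counts, a quantity picked after the values were seen and not tested, was 3.47 to 3.71 at 37°C and 3.85 to 4.15 at 39°C. Hsp90b1 (GRP94), the form of the endoplasmic reticulum, fell from 996 ± 18.7 to 670.1 ± 37.2 CPM (log2 fold change -0.57 ± 0.053 (SE), adjusted p = 1.62e-08). Stip1 (HOP), which holds HSP70 and HSP90 together for client transfer, showed the second largest fall of all members above 100 CPM at 37°C, with 217, 236, 238 and 254 CPM in the 37°C libraries and 110.0, 119.5, 110.3 and 109 CPM in the 39°C libraries (log2 fold change -1.07 ± 0.053 (SE), adjusted p = 1.51e-12). Ahsa1, which speeds the HSP90 ATPase, fell by 0.38 on the log2 scale, with the first 39°C replicate at 100.1 CPM inside the 37°C range and the other 39°C libraries at 76.1 to 82.7 CPM. Chordc1 fell by 0.36. Of 18 further HSP90 partners outside the rule, 14 were lower and 3 higher, against 30.5% and 31.5% of all genes, with the p23 gene Ptges3 at -0.55, Fkbp4 at -0.47 and Fkbp5 at -1.20 among the lower ones and Cdc37l1 at 0.48 among the higher. Within G1 cells 9 of the 18 were lower and 4 higher, against 22.4% and 24.8% of all genes; there Ptges3 was lower at -0.17, and Fkbp4 was not called at 0.004 (adjusted p = 0.973). Of 5 HSP70 exchange factors and inhibitors, 4 were lower (Grpel1, -0.43) and Sil1 was higher at 0.25, against 30.5% and 31.5% of all genes. Within G1 cells 3 of these 5 were lower and 1 higher, against 22.4% and 24.8%.

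Both genes of the mitochondrial chaperonin fell, but unequally. Hspd1 measured 536, 580.3, 562 and 618 CPM in the 37°C libraries and 233, 254, 249 and 234 CPM in the 39°C libraries, 2.37-fold lower (log2 fold change -1.24 ± 0.055 (SE), adjusted p = 3.04e-13). Hspe1 measured 834, 778, 762 and 803 CPM in the 37°C libraries and 510.0, 621, 603 and 597 CPM in the 39°C libraries (log2 fold change -0.45 ± 0.061 (SE), adjusted p = 2.75e-06). Neither gene's temperatures overlapped. The ratio of Hspe1 to Hspd1 counts was 1.30 to 1.56 in the 37°C libraries and 2.19 to 2.55 in the 39°C libraries, a description chosen after the values were seen. The 2 genes start head to head and overlap at their starts on opposite strands, and the assay counts molecules at their other ends. Of 6 genes of mitochondrial protein quality control, 4 were lower, among them Trap1, a mitochondrial HSP90, at -0.45 and Htra2 at -0.48, and 0 were higher. These counts are for all cells, where 30.5% of all genes were lower and 31.5% higher. Within G1 cells 4 of the 6 were lower and 1 higher, Clpb at 0.28, against 22.4% and 24.8% of all genes.

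In TRiC, 6 of 8 tested members were lower and 1 was higher, against 30.5% and 31.5% of all genes. Tcp1 measured 236, 255, 252 and 271 CPM in the 37°C libraries and 146, 153, 153 and 149.6 CPM in the 39°C libraries (log2 fold change -0.75 ± 0.049 (SE), adjusted p = 8.79e-11), with coding genes overlapping it on the other strand. Cct3 fell the most, with 212, 238, 236 and 256 CPM in the 37°C libraries and 132, 139, 141 and 129 CPM in the 39°C libraries (log2 fold change -0.80 ± 0.056 (SE), adjusted p = 2.62e-10). Cct2, Cct5, Cct7 and Cct8 fell by 0.36, 0.44, 0.42 and 0.45 on the log2 scale. In contrast Cct4 measured 403, 407, 416 and 420.0 CPM in the 37°C libraries and 640.3, 583, 582 and 603 CPM in the 39°C libraries, without overlap (log2 fold change 0.55 ± 0.050 (SE), adjusted p = 1.04e-08). Cct4 counts were 1.26 to 1.39 times the mean of Tcp1, Cct2, Cct3, Cct5, Cct7 and Cct8 at 37°C and 2.59 to 2.92 times at 39°C; this ratio was formed after the values were seen, and the subunits sit in equal numbers in the complex. No annotated gene overlaps Cct4. Cct6b, a testis form, stayed under 1 CPM. Cct6a was not among the genes the rule found, so the counts and the ratio do not cover it. Of the partners that deliver clients to TRiC, prefoldin had 3 subunits lower and 1 higher of 6 in all cells but 0 lower and 1 higher within G1 cells. Over all genes the lower and higher shares were 30.5% and 31.5% in all cells and 22.4% and 24.8% within G1 cells. Of 3 phosducin-like partners Pdcl3 was lower at -0.37 and Txndc9 higher at 0.30.

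**Figure D4:**
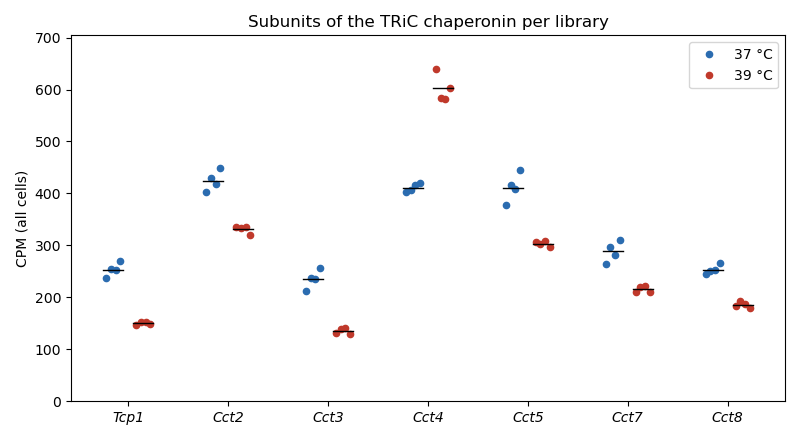
CPM (y axis, from 0) of 7 TRiC subunits in the 4 libraries of each temperature; points are libraries and black lines means. Of the subunits drawn, Cct4 is the 1 whose 39°C libraries lie above its 37°C libraries, and the other 6 lie below.

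Members of each J protein subfamily moved both ways. In subfamily A, Dnaja1, the main cytosolic partner of HSC70, measured 529, 539.9, 529 and 563 CPM in the 37°C libraries and 354, 390.4, 380.4 and 349 CPM in the 39°C libraries (log2 fold change -0.55 ± 0.052 (SE), adjusted p = 1.71e-08). Dnaja2 was also lower at -0.23, the mitochondrial Dnaja3 was higher, from 19.6 ± 1.30 to 23.2 ± 1.04 CPM (log2 fold change 0.24 ± 0.058 (SE), adjusted p = 0.00119), and Dnaja4 was not called. In subfamily B, 4 members were higher and 3 lower of 8 tested, against 31.5% and 30.5% of all genes. Dnajb2, a neuron-enriched J protein that binds ubiquitinated clients, showed the largest rise, with 22.0, 24.9, 23.1 and 21.5 CPM in the 37°C libraries and 39.0, 37.7, 33.7 and 34.2 CPM in the 39°C libraries (log2 fold change 0.66 ± 0.060 (SE), adjusted p = 1.13e-08). Dnajb5 also rose, from a low level of 2.05 ± 0.253 to 3.18 ± 0.209 CPM (0.63), and Dnajb12, of the endoplasmic reticulum membrane, rose by 0.20. Dnajb11 (ERdj3), of the lumen of the endoplasmic reticulum, fell from 119.6 ± 4.67 to 82.3 ± 3.50 CPM (log2 fold change -0.54 ± 0.048 (SE), adjusted p = 7.41e-09). Dnajb6, which keeps polyglutamine proteins soluble and has the 3-unit pattern shown above, was the most abundant of subfamily B and measured 203, 219.7, 206 and 197 CPM in the 37°C libraries and 226, 189, 189 and 183 CPM in the 39°C libraries. It was not called (log2 fold change -0.07 ± 0.061 (SE), adjusted p = 0.344), and without the first 39°C replicate it was lower at -0.15 with adjusted p = 0.00929.

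Subfamily C, a mixed group joined only by the J domain, had 11 members lower and 3 higher of 25 tested, against 30.5% and 31.5% of all genes. Within G1 cells 5 of 25 were lower and 2 higher, against 22.4% and 24.8% of all genes. Within S and G2M cells 9 of 24 were lower and 2 higher, against 23.8% and 20.6%. The largest fall was that of Dnajc15, which with Dnajc19 belongs to the protein import motor of mitochondria: Dnajc15 measured 43.8, 42.7, 41.1 and 46.2 CPM in the 37°C libraries and 22.6, 24.8, 25.9 and 25.7 CPM in the 39°C libraries (log2 fold change -0.81 ± 0.054 (SE), adjusted p = 1.37e-10), and Dnajc19 fell from 102 ± 3.59 to 69.1 ± 7.06 CPM (-0.55). Dnajc3 (p58IPK) and Dnajc10 (ERdj5), both of the endoplasmic reticulum, were lower at -0.49 and -0.22. The largest called rise was in Dnajc18, which measured 23.6, 22.7, 22.3 and 20.5 CPM in the 37°C libraries and 27.3, 25.8, 26.7 and 26.7 CPM in the 39°C libraries (log2 fold change 0.26 ± 0.053 (SE), adjusted p = 3.21e-04), and Dnajc14 and Dnajc1 were the others that rose, by 0.24 and 0.12. Dnajc9, a histone chaperone and the most abundant of the subfamily, was not called in all cells (log2 fold change 0.07 ± 0.044 (SE), adjusted p = 0.198).

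Of the 6 members of the BAG family, known for binding the ATPase domain of HSP70 though not through every member, 3 were higher and 2 lower. Over all genes the shares were 31.5% and 30.5%. Beside Bag3, Bag4 rose by 0.23 and Bag5 by 0.30. Bag2, an inhibitor of the ubiquitin ligase CHIP, measured 38.3, 40.3, 42.3 and 45.4 CPM in the 37°C libraries and 25.7, 26.1, 23.4 and 24.9 CPM in the 39°C libraries, without overlap (log2 fold change -0.74 ± 0.057 (SE), adjusted p = 1.30e-09). Bag1, the most abundant, measured 279.6, 279, 278 and 305 CPM in the 37°C libraries and 262, 284, 272 and 287 CPM in the 39°C libraries and was not called (log2 fold change -0.05 ± 0.050 (SE), adjusted p = 0.433).

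Small heat shock proteins, which hold unfolded proteins without ATP, held the largest fall of all members. Hspb6 (HSP20), known from muscle, measured 14.0, 14.5, 14.1 and 14.6 CPM in the 37°C libraries and 3.18, 3.63, 3.26 and 3.51 CPM in the 39°C libraries; the highest 39°C library lay far below the lowest at 37°C (log2 fold change -2.07 ± 0.076 (SE), adjusted p = 2.31e-14). Hspb2, another muscle form, was lower from 1.80 ± 0.143 to 1.12 ± 0.299 CPM (-0.67). Along with these, 5 of 6 mesenchymal marker genes were lower, against 30.5% of all genes. Their summed level was 1996 to 2061 CPM at 37°C and 836 to 874 CPM at 39°C. The smooth muscle actin gene Acta2 went from 225 to 25.3 CPM, and Dcn was at 22 counts in all. Neuron markers fell as well: 3 of the 4 tested were lower and 0 higher, against 30.5% and 31.5% of all genes. These were Stmn2 at -1.07, Tubb3 at -0.87 and Map2 at -0.79. The part of these marker genes in the result was not tested. Hspb11, an intraflagellar transport protein that shares only the family name, rose with 66.3, 54.8, 61.0 and 59.9 CPM in the 37°C libraries and 71.4, 83.5, 85.3 and 84.5 CPM in the 39°C libraries (log2 fold change 0.43 ± 0.062 (SE), adjusted p = 5.56e-06). Hspb8, the partner of Bag3, rose by 0.23. Of the 7 tested members of this class, 3 were higher and 2 lower in all cells, against 31.5% and 30.5% of all genes. Within G1 cells 1 was higher and 2 lower, against 24.8% and 22.4%. Within S and G2M cells 1 was higher and 3 lower, against 20.6% and 23.8%. Cryab (αB-crystallin), by far the most abundant of the class, measured 510.5, 476, 485 and 516 CPM in the 37°C libraries and 526, 635, 594 and 608 CPM in the 39°C libraries, without overlap (log2 fold change 0.25 ± 0.058 (SE), adjusted p = 9.66e-04).

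Since most cells at 39°C were in G1, the temperatures were also compared among G1 cells and among S and G2M cells. In G1 cells 31 of 82 tested members were lower and 14 higher, against 22.4% and 24.8% of all genes, and 8 and 4 of them passed a log2 size of 0.5, against 9.73% and 11.8%. In S and G2M cells 36 of 81 were lower and 9 higher, against 23.8% and 20.6%, and 13 and 1 passed the size limit, against 10.2% and 11%. The median over members was -0.07 in G1 and -0.17 in S and G2M cells, beside 0.04 and -0.02 over all genes. Of the 80 members tested in all 3 sets of cells, 26 were lower in each and 8 higher in each, against 16.8% and 16.2% of all genes. The falls of Hspd1 and Stip1 held in both classes: Hspd1 changed by -0.85 in G1 and -0.88 in S and G2M cells, and Stip1 by -0.70 and -0.70, all smaller than in all cells. Hspb6 was likewise lower in both, at -1.82 and -1.47. Of the inducible members, Dnajb1 was higher in both classes, by 0.45 and 0.35, and Hsph1 lower, at -0.47 and -0.36, whereas Bag3 was higher in G1 at 0.19 and not called in S and G2M cells at 0.07 (adjusted p = 0.574); the difference between the classes was not called for Bag3 (adjusted p = 0.311). Hspa1a and Hspa1b were not called in either class. Hspd1 also varied by phase within a temperature, at 420.1 ± 25.1 CPM in G1, 743 ± 18.3 CPM in S and 508 ± 39.8 CPM in G2M cells at 37°C and 227 ± 9.27, 377 ± 32.2 and 256 ± 8.06 CPM at 39°C.

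Some members were called in all cells but not within G1. Hsp90aa1 was not called in G1 cells (log2 fold change -0.13 ± 0.065 (SE), adjusted p = 0.0951) and was lower in S and G2M cells (log2 fold change -0.34 ± 0.068 (SE), adjusted p = 1.56e-04). At 37°C it measured 901 ± 87.6 CPM in G1 and 1289 ± 58.8 CPM in G2M cells. Hspa14 was not called in G1 cells either (log2 fold change 0.05 ± 0.058 (SE), adjusted p = 0.513), and nor was its partner Dnajc2 (log2 fold change -0.08 ± 0.053 (SE), adjusted p = 0.256). For Hspa14 the levels at 37°C were 64.4 ± 4.97 CPM in G1 and 119 ± 4.00 CPM in S cells, against 65.0 ± 1.67 CPM in G1 cells at 39°C. Dnajc9 showed the reverse: not called in all cells, it was higher in G1 cells (log2 fold change 0.52 ± 0.048 (SE), adjusted p = 5.80e-09) and in S and G2M cells (log2 fold change 0.29 ± 0.056 (SE), adjusted p = 1.14e-04). Its level in G1 cells went from 165 ± 0.788 to 229 ± 2.65 CPM and in S cells from 243 ± 8.55 to 313 ± 12.4 CPM. Cryab was the 1 member called in opposite directions, higher in all cells, not called in G1 (log2 fold change 0.05 ± 0.060 (SE), adjusted p = 0.516) and lower in S and G2M cells (log2 fold change -0.18 ± 0.066 (SE), adjusted p = 0.0321). In G1 cells Cryab measured 620.3 ± 28.6 CPM at 37°C and 626 ± 49.3 CPM at 39°C, and in G2M cells 501 ± 20.8 and 387 ± 87.7 CPM.

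**Figure D5:**
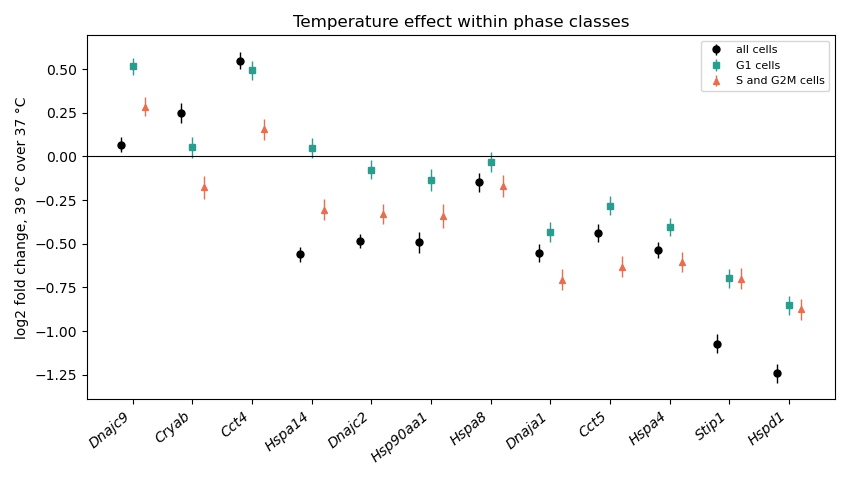
Log2 fold change (39°C over 37°C, y axis) of 12 members in all cells, in G1 cells and in S and G2M cells; points are edgeR estimates and bars SE. Hspd1 and Stip1 are below 0 in each set, Hspa14 and Hsp90aa1 lie nearer 0 in G1 cells, Dnajc9 is highest in G1, and Cryab crosses 0.

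Whether an effect differed between the phase classes was tested as an interaction with the library as a block. The effect was lower in S and G2M cells for 19 of 82 members and higher for 1, against 11.1% and 5.13% of all genes. This split moved with the scaling, to 8 lower and 6 higher with library totals only, against 4.13% and 11.3% of all genes. Under all 4 scalings 8 members kept a lower and 1 a higher effect, against 4.13% and 5.13% of all genes: Bag1, Cct4, Cct5, Cryab, Dnaja1, Dnajc9, Hsp90aa1 and Hspa14 were the lower ones and Hsp90b1 the higher. Cct4 rose by 0.49 in G1 and by 0.15 in S and G2M cells (difference -0.35 ± 0.035 (SE), adjusted p = 1.69e-21). Hspa14 had the largest of these differences (difference -0.37 ± 0.066 (SE), adjusted p = 7.57e-07). Bag1, which was not called in all cells or in G1, was lower in S and G2M cells at -0.27 (difference -0.33 ± 0.042 (SE), adjusted p = 1.58e-13). Dnaja1 fell by 0.43 in G1 and by 0.71 in S and G2M cells (difference -0.29 ± 0.036 (SE), adjusted p = 3.57e-13).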

How the data were processed

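Cells were captured with the Chromium Single Cell 3' V3 kit. The authors aligned reads to mm10 with Cell Ranger 3.0.1 and deposited raw counts of UMIs for every gene in every cell, as 1 matrix for each of 8 libraries and without normalization; this kit counts RNA ends, so levels were not divided by length. The study's cell filter was applied (at most 15% mitochondrial counts, 200 to 6000 genes) and no doublet caller was run. Counts were summed per library, the replicate, over all, G1, or S and G2M cells (Seurat 5.3.0 phase scores, with no member among the phase genes). Genes averaging at least 1 count per library were tested with edgeR 4.0.16 (R 4.3.3; TMM scaling, quasi-likelihood test, Benjamini-Hochberg adjustment over all genes), with temperature alone as the term. The interaction of temperature and phase was tested on 16 sums with library as a block. CPM were taken with TMM-scaled totals, except for count ratios and the members' share of counts, which used plain totals. The total counts of 17166686 to 29633818 per library set the precision, and ratios and shares carry counting error besides the spread shown. The edgeR fits and the formula for the share of cells were tested on simulated counts. DESeq2 1.42.0, other scalings, filters, phase assignments, a replicate block and leaving out each library were tried as alternatives. No pair of replicates agreed within sampling noise (chi-square over genes), so none was counted as a copy.

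Members and gene lists were chosen with earlier results of these data known. Named members were a fixed set of 16 core genes plus, in each class, the largest called rise and fall without overlap (at least 5 CPM) and the most abundant member; others are named where their class is described. Whether counting used strand is not given in the sources used here; 21 of the 83 tested members overlap a coding gene on the other strand and 5 on the same strand (GENCODE annotation of GRCm38), and their counts are uncertain to that extent.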

Additional observations from a re-analysis of the deposited data

Results flagged for a closer look

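In the test for 1 library far from the other 3 of its temperature (Dixon's test, which chance flags in about 1 in 20 groups), 8 results stood out among 82 groups of CPM values and cell shares of named members. In 37°C replicate 4, Hsp90ab1 at 4409 CPM and Bag1 at 305.5 CPM lay above the others. In 37°C replicate 1, Hspa14 at 96.6 CPM and the share of cells with Hspa1a at 2.421% lay below. In the first 39°C replicate, Dnajb6 at 226.4 CPM lay above and Hspb11 at 71.43 CPM below. In the other 39°C libraries, Stip1 at 119.5 CPM was high in replicate 2 and Dnajb11 at 77.1 CPM was low in replicate 4. Of these genes, Dnajb6 changed its call without the library in question.

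The temperature effect differed between S and G2M cells and G1 cells for 14 named members by the interaction test. The effect was lower in S and G2M cells for Hspa14 by a log2 difference of -0.3655, for Cct4 of -0.3532, for Bag1 of -0.3309, for Dnaja3 of -0.318, for Dnaja1 of -0.2857, for Cryab of -0.2458 and for Dnajc9 of -0.2454. Smaller differences of this direction were -0.224 for Hsp90aa1, -0.2141 for Hspa4, -0.1546 for Hspa8, -0.1409 for Cct3, -0.1331 for Hspe1 and -0.07022 for Hsp90ab1. Hsp90b1 alone differed the other way, by 0.1227. The median of all genes in this test was -0.06 with TMM scaling and 0.06 with library totals. Of the 14, Dnaja3, Hspa4, Hspa8, Hspe1, Cct3 and Hsp90ab1 were not called with library totals: the differences were then -0.20, -0.09, -0.03, -0.01, -0.02 and 0.05, the last with its sign changed, at adjusted p of 0.306, 0.185, 0.426, 0.865, 0.854 and 0.0911. The other 8 were called in the same direction under all 4 scalings.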

How the results depend on the processing

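In all cells the counts of members called stayed between 16 and 21 higher and 36 and 42 lower over every alternative, and no named member that was called changed sign. Hspa1b passed the limit under 9 alternatives, Hspa1a under 3 and Dnajb6 under 1, and Hspa8 missed it under 5. Counts of members higher by over 0.5 on the log2 scale were small: in G1 cells 4, or 2 with RLE, upper quartile or no scaling factors, with filterByExpr or with DESeq2; in S and G2M cells 1, but 2 with upper quartile factors, filterByExpr or no cell filter, 3 with phases scored within each temperature, 4 with library totals only and 0 to 2 when a library was left out (0 without 39°C replicate 1, 2 without 39°C replicate 3 or 4). The interaction counts, 19 lower and 1 higher, became 12 and 2 with RLE factors, 9 and 3 with upper quartile factors and 8 and 6 with library totals only. Without thinning, the difference in share of cells (39°C minus 37°C, percentage points) reversed for Hspa1a (-0.3133), Hspa1b (-1.77), Dnajb1 (-0.5266) and Cryab (-0.8022), and was -15.0 for Hsph1, -4.235 for Hspb1 and 1.954 for Bag3. Thinned to 5000 UMIs it was 1.138 for Hspa1b, 5.871 for Dnajb1, -8.035 for Hsph1 and 4.169 for Bag3. With the replicate number as a block, 17 members were called higher and 40 lower in all cells. Same-numbered libraries of the 2 temperatures correlated at -0.117, -0.116, -0.0906 and 0.284 in their deviations. Differently numbered pairs ran from -0.310 to 0.303, so no pairing by number was seen. With 4 libraries per temperature this comparison cannot exclude a pairing. Members under 1 CPM could not show moderate changes at this depth.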
